A study of Mus musculus with 2 samples.

Results

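The 48 genes described here encode glutathione transferases and antioxidant enzymes, and they were measured in mouse embryonic fibroblasts (MEFs) whose distal chromosome 7 came from 1 parent. They were taken by gene symbol: the cytosolic and mitochondrial Gst genes of the alpha, kappa, mu, omega, pi and theta classes, the microsomal Mgst genes, the peroxiredoxins, the glutathione peroxidases, and a set of named genes of glutathione synthesis, thioredoxin reduction, superoxide and peroxide removal and their regulation. They made up 48 of the 19938 genes measured, on 52 probe sets with a single gene symbol. Of the symbols that meet the rule in the reference gene table, Gsta1, Gsta2, Gstp2, Prdx5 and Prdx6 had no value of their own here. MatDup.dist7 embryos carry 2 maternal copies of the distal segment, and PatDup.dist7 embryos carry 2 paternal ones. No group with 1 copy from each parent is among the samples. Embryos were taken 13.5 days post coitum, and each genotype was measured on 1 array. The labels do not say whether a culture came from a single embryo or from a pool.

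Glutathione transferases join the tripeptide glutathione to reactive, often oxidised, molecules so that these can be exported. Glutathione peroxidases and peroxiredoxins reduce peroxides, most of the former with glutathione and most of the latter with thioredoxin. Catalase splits hydrogen peroxide directly, and superoxide dismutases supply that peroxide from superoxide. Many of these genes are transcribed under NRF2, the product of Nfe2l2, which binds antioxidant response elements and is held at a low level by KEAP1. Cultured fibroblasts are exposed to more oxygen than cells of the embryo and rely on these systems. The medium used for both cultures contained β-mercaptoethanol, a reducing thiol, per the labels' protocols. None of the 48 members lies on chromosome 7, so none is in the segment that differs in parental origin.

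Because NRF2 target genes share a short DNA element, the RefSeq promoter windows of the members (GRCm38.p6, 250 bases before to 50 after the start of transcription) were searched on both strands for TGACNNNGC, the core of the antioxidant response element. A window was found for 42 members, and 10 of these held a match. The windows of Gclc, Gsr, Gsta4, Gstt2, Hmox1 and Sod3 were not used here. Of all 55 member windows 18.2% held the motif, against 12.4% of all 32851 windows of the same length. Shown are 100 bases around the match, all upstream of the start, for the 3 members with an upstream match and the largest expression difference, read along the strand of the gene, with the match in capitals. The match in Gstm5 begins at position -42 on the gene's strand, and those in Mgst1 and Gclm, which lie on the opposite strand, span from positions -56 and -134.
Gstm5, chr3:107895754-107895853, plus strand: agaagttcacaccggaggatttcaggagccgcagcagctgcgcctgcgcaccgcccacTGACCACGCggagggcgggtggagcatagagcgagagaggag
Mgst1, chr6:138140425-138140524, plus strand: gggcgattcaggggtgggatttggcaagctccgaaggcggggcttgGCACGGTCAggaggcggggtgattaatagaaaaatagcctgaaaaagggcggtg
Gclm, chr3:122245377-122245476, plus strand: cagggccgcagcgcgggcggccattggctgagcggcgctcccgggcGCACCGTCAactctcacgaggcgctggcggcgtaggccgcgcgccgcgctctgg
The matches are matches of letters, and binding was not measured.

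As a group the members were balanced between the genotypes, with 24 higher on each array, where 48.6% of all genes were higher in PatDup.dist7. With the arrays centred on their medians the split was 19 on the MatDup.dist7 side and 29 on the other. Centring also moved the median over all genes to the PatDup.dist7 side (-0.03), beside -0.06 for the members. Differences are given as MatDup.dist7 minus PatDup.dist7 on the log2(intensity + 16) scale, on which changes of dim genes appear smaller than they are. The median difference of the members was 0.00010, beside 0.02 over all genes. At least 2-fold higher in MatDup.dist7 were 3 of 48 (6.25%), where 4.47% of all genes were, and at least 2-fold higher in PatDup.dist7 were also 3 of 48 (6.25%), where 3.16% were. At 1.5-fold the counts were 5 (10.4%) in MatDup.dist7, beside 15.5% of all genes, and 9 (18.8%) in PatDup.dist7, beside 12.5%. Against the background of all genes these counts amount to a few genes in either direction. A single array stands for each genotype and no test can be made, so the differences carry no p-value and no error between cultures. Where a gene had several probe sets, their differences had a standard deviation of 0.43 over 724 genes, which describes agreement inside an array pair only.

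**Figure D1:**
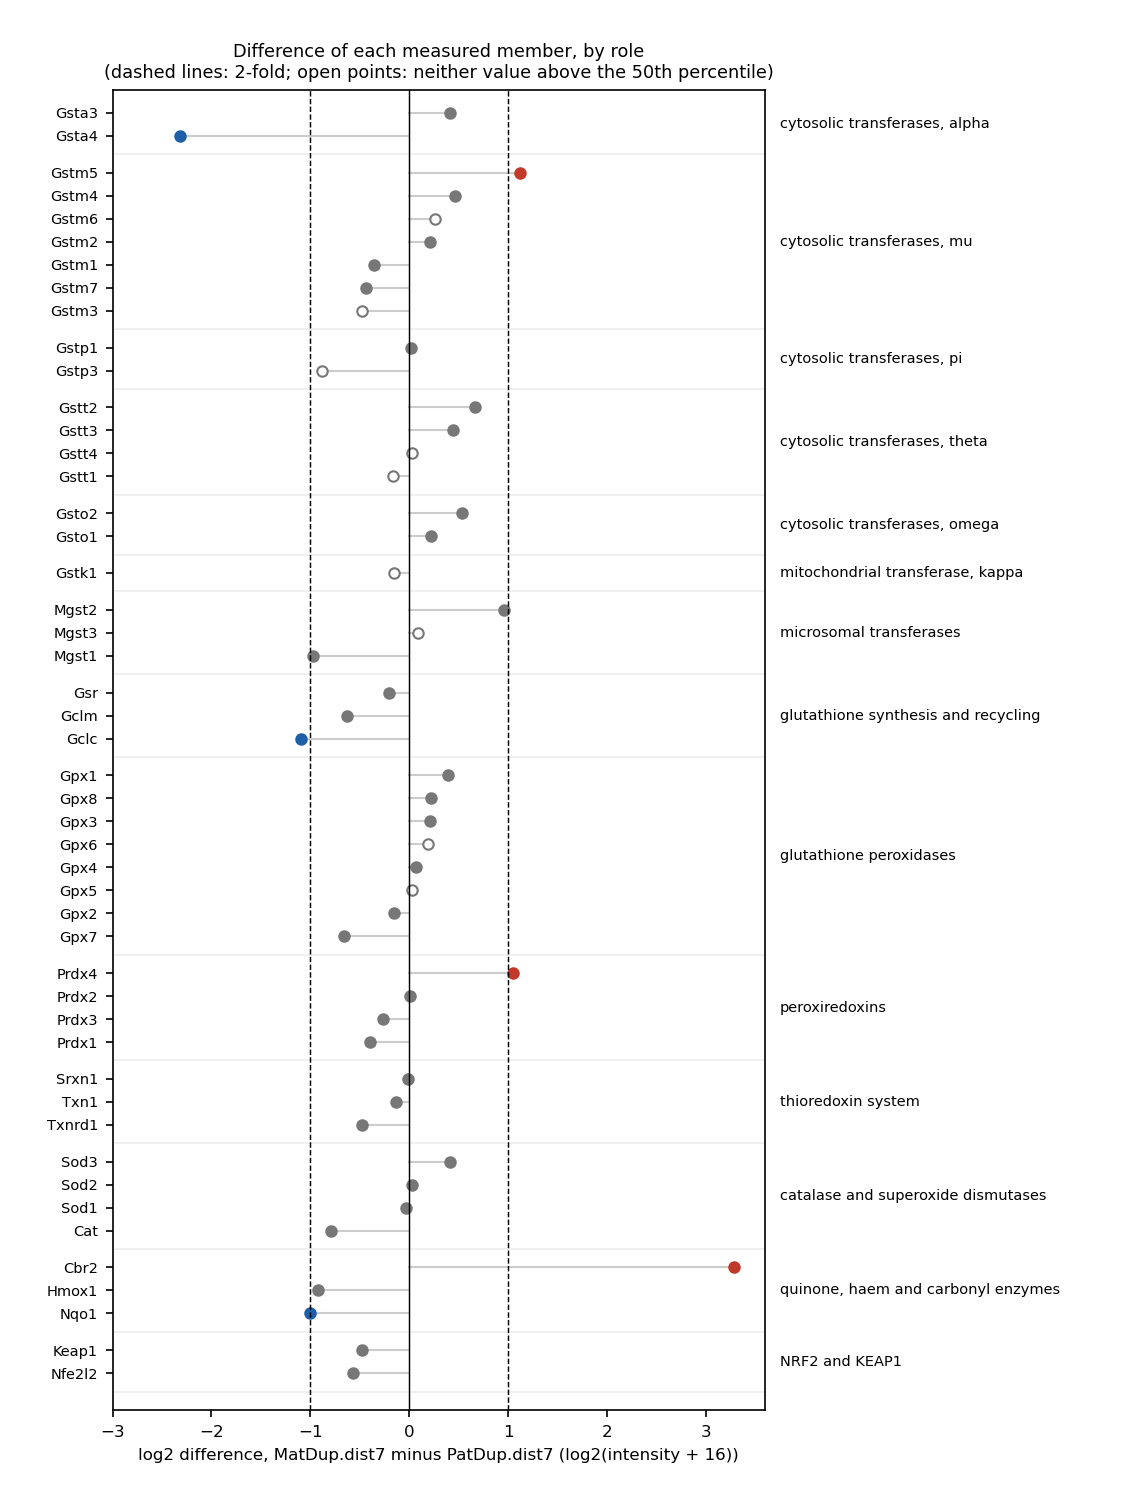
Difference of each of the 48 members (x axis, MatDup.dist7 minus PatDup.dist7, log2(intensity + 16)), grouped by role; red points pass 2-fold on the MatDup.dist7 side, blue points on the PatDup.dist7 side, and open points are dim on both arrays (at or below the 50th percentile of intensity). Gsta4, Gclc and Nqo1 lie beyond 2-fold on the PatDup.dist7 side and Cbr2, Gstm5 and Prdx4 on the MatDup.dist7 side, while the genes of glutathione synthesis and recycling all lie on the PatDup.dist7 side.

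The genes that make and regenerate glutathione were all higher in PatDup.dist7. Gclc, the catalytic subunit of glutamate-cysteine ligase, which performs the rate-limiting step of glutathione synthesis, was measured at an intensity of 143 for MatDup.dist7 against 324 for PatDup.dist7, a difference of -1.09. Pairs of intensities are given in this order from here on. Gclm, the modifier subunit of the same ligase, had 237 and 375, a difference of -0.63. Both subunits of the ligase were thus more than 1.5-fold higher on the PatDup.dist7 array. Gsr, the reductase that returns oxidised glutathione to its reduced form, had 298 and 344 and differed less (-0.20). The other genes of glutathione synthesis, breakdown and cystine supply did not all follow. Of the 12 measured, 8 were on the PatDup.dist7 side and 4 on the MatDup.dist7 side, none beyond 2-fold, with a median of -0.26. At the ends of this list stood Gss, the synthetase of the next step, with 411 and 749 (-0.84), and Ggct, an enzyme of glutathione breakdown, with 31.7 and 10.0 (0.87).

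The cytosolic transferases did not move as a class. Over the 21 transferase genes of all classes, 13 were on the MatDup.dist7 side and 8 on the other, with 1 beyond 2-fold in each direction and a median of 0.09, and after centring 11 and 10. Gsta4, the alpha-class enzyme that conjugates the lipid peroxidation product 4-hydroxynonenal, had 107 and 596. Its difference of -2.32 was the 14th largest PatDup.dist7 excess among all 19938 genes and more than that of any other member in this direction. Gsta3, the other alpha-class member with its own value, differed the other way, with 82.7 and 57.9 (0.42).

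The mu class, a row of neighbouring genes on chromosome 3, was split. Gstm5, a mu-class gene known from brain and testis, had 282 and 121 (1.12). Gstm4, with 219 and 154 (0.47), was also higher in MatDup.dist7, whereas Gstm1, a major mu-class enzyme of liver, had 157 and 204 (-0.35) and Gstm7 had 80.1 and 114 (-0.44). The remaining mu genes, Gstm2, Gstm3 and Gstm6, differed by 0.21, -0.47 and 0.26. Sequences in this class are closely similar, so signal from a related gene at a probe set was not separated here. The 2 probe sets of Gstm3 differed by -0.38 and -0.57, the second from intensities of 8.03 and 19.6. Gstm3 (32.2 and 48.8) and Gstm6 (19.7 and 13.8) both had low signal.

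Of the pi class, Gstp1, the main transferase of many cultured cells, had 908 and 893 and differed by 0.02. Gstp3, with 13.9 and 39.1 (-0.88), was dim on both arrays, where the 50th percentile of intensity was 66.4. The theta genes Gstt2 (129 and 75.8, difference 0.66) and Gstt3 (197 and 141, 0.45) were higher in MatDup.dist7, and Gstt1 and Gstt4 differed by -0.17 and 0.03 at low signal. Both omega genes, whose enzymes reduce dehydroascorbate and release glutathione from proteins, were higher in MatDup.dist7: Gsto1 had 641 and 546 (0.22), and Gsto2 had 146 and 95.4 (0.54). Gstk1, the mitochondrial kappa enzyme, differed by -0.16 at 26.5 and 31.4.

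The membrane-bound transferases went in opposite directions. Mgst1, an abundant enzyme of the endoplasmic reticulum and outer mitochondrial membrane, had 55.3 and 123 (-0.97). Mgst2, which also makes leukotriene C4, had 67.7 and 27.1 (0.96). Mgst3 had 51.2 and 47.2 (0.09). Mgst1 and Mgst2 lay just inside the 2-fold line on opposite sides, and each passed it with a pseudocount of 1 (-1.15 and 1.29).

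**Figure D2:**
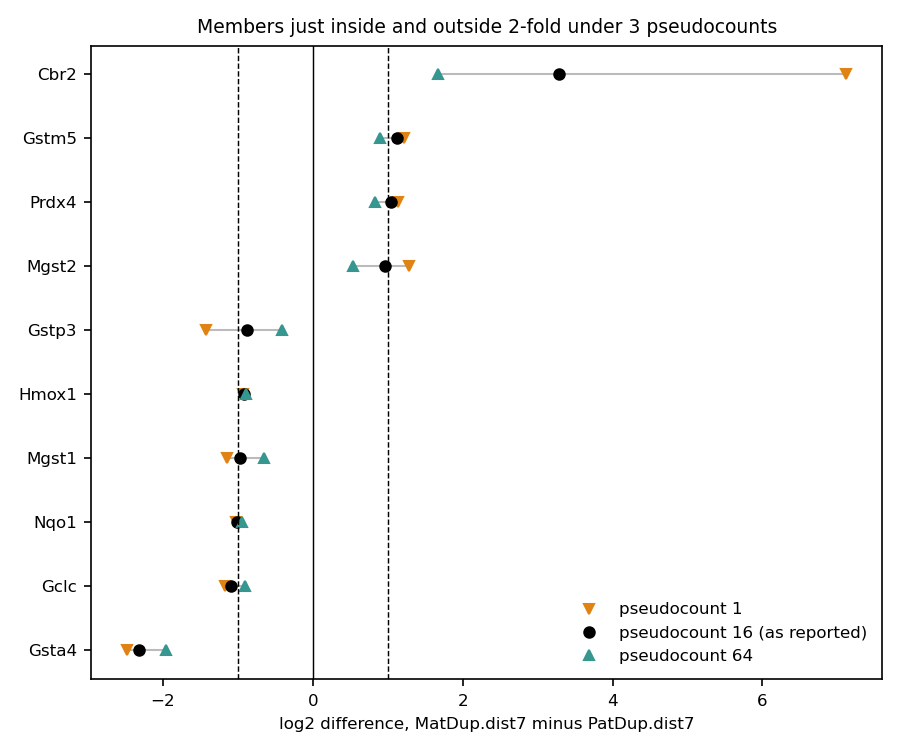
Differences of the 10 members nearest to or beyond 2-fold with pseudocounts of 1, 16 and 64 (x axis, log2 difference, MatDup.dist7 minus PatDup.dist7; dashed lines, 2-fold). Cbr2 spans from 1.67 to 7.12, Hmox1 and Nqo1 hardly move, and no gene changes side of 0.

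No gene of the glutathione peroxidase family reached 2-fold. Of the 8 glutathione peroxidases, 6 were higher in MatDup.dist7, with a median of 0.13, and 5 were after centring or quantile normalisation. Gpx1, the cytosolic selenoenzyme, had 1041 and 789.6 (0.39). Gpx4, which reduces lipid hydroperoxides in membranes, had 2348 and 2246 (0.07), and its 2 probe sets differed by 0.04 and 0.11. Gpx8, an enzyme of the endoplasmic reticulum, had 1118 and 955 (0.22). Its close relative Gpx7, of the same compartment, differed the other way with 37.0 and 67.6 (-0.66). Gpx3, the secreted form, had 191 and 162 (0.21), and Gpx2, Gpx5 and Gpx6 differed by -0.15, 0.03 and 0.19. Gpx5 (23.1 and 22.3) and Gpx6 (9.82 and 6.57), both counted among the 6, were dim on both arrays.

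The peroxiredoxins went both ways. Prdx4, the peroxiredoxin of the endoplasmic reticulum, had 246 and 111 (1.05). It was the only measured peroxiredoxin beyond 2-fold and is the only member on the X chromosome. The cultures were also unlike in transcripts tied to sex: Eif2s3y, Uty and Kdm5d of the Y chromosome differed by 2.51, 2.33 and 1.83, and Xist, the RNA of the inactive X, by -2.74. The part of this in the Prdx4 difference was not tested, and effects of sex and genotype cannot be told apart on any chromosome with these arrays. The 10 measured neighbours of Prdx4 on the X, 5 on each side, had a median difference of 0.09, with Magea5 at low signal the only neighbour at least 2-fold higher in MatDup.dist7. The cytosolic Prdx1, an NRF2 target, had 2053 and 2680.2 (-0.40), and its 2 probe sets differed by -0.30 and -0.49. Prdx2, also cytosolic, had 1869 and 1868 (0.01), with probe sets at 0.08 and -0.05, and the mitochondrial Prdx3 had 535 and 644 (-0.26).

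The thioredoxin genes were slightly higher in PatDup.dist7 or even. Txnrd1, the cytosolic selenoenzyme that reduces thioredoxin, had 231 and 327 (-0.47), and Txn1, thioredoxin itself, had 1602 and 1759 (-0.13). Srxn1, sulfiredoxin, which repairs over-oxidised peroxiredoxins and is a known NRF2 target, had 399 and 403 (-0.01). Srxn1 thus did not share the PatDup.dist7 excess of Gclc and Nqo1.

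Catalase stood apart from the dismutases. Cat, the peroxisomal catalase gene, had 585 and 1021 (-0.79). Sod1, the cytosolic copper-zinc dismutase, had 1282 and 1308 (-0.03), and the mitochondrial Sod2 had 163 and 159 (0.03). Sod3, the extracellular form, was higher in MatDup.dist7 with 103 and 73.0 (0.42).

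Of the inducible enzymes, Nqo1 and Hmox1 were higher in PatDup.dist7 by close to the same factor. Nqo1, a quinone reductase and standard readout of NRF2 activity, had 507 and 1034. Its difference of -1.01 sits on the 2-fold line, which it no longer reached under quantile normalisation or with a pseudocount of 64. Hmox1, the oxygenase that breaks haem into biliverdin, iron and carbon monoxide, had 1128 and 2152 (-0.92). Hmox1 is also strongly expressed in macrophages, and 10 of 15 macrophage markers were higher in PatDup.dist7, with a median of -0.41. Their differences ran from -1.32 for Mrc1, the mannose receptor (31.7 and 103), to 0.96 for Adgre1 (548 and 273). Csf1r, Lyz2, C1qc and Lyz1 shared the direction of Adgre1, with differences of 0.19, 0.18, 0.15 and 0.04. The summed intensity of the 15 macrophage markers was 9405 against 10807, and none was under 1 on either array. In such bulk samples, more cells of a type and more RNA per cell cannot be told apart, and the part of macrophages in the Hmox1 difference was not tested.

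Cbr2 had the largest difference of any member and went against Nqo1 and Hmox1. This carbonyl reductase, abundant in mouse lung, had 139.9 and 0.0155, a difference of 3.28 from 1 probe set. It was the only member with a value under 1 on an array. The size rests on the low value: it was 7.12 with a pseudocount of 1 and 1.67 with 64. Such a low value does not show that the transcript was missing. Dcxr, the neighbouring gene, which encodes a related reductase, had 196 and 235 (-0.24), and none of the 10 measured neighbours of Cbr2 was at least 2-fold apart. Markers of epithelium, listed because Cbr2 is known from airway epithelium, were higher in MatDup.dist7 in 10 of 11 cases. Their median was 0.56 and their summed intensity was 1498 against 667, none being under 1. The widest differences among them were those of Sfn, with 398 and 2.02 (4.47), and Krt19, with 152 and 18.8 (2.27). Their part in the Cbr2 difference was not tested.

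**Figure D3:**
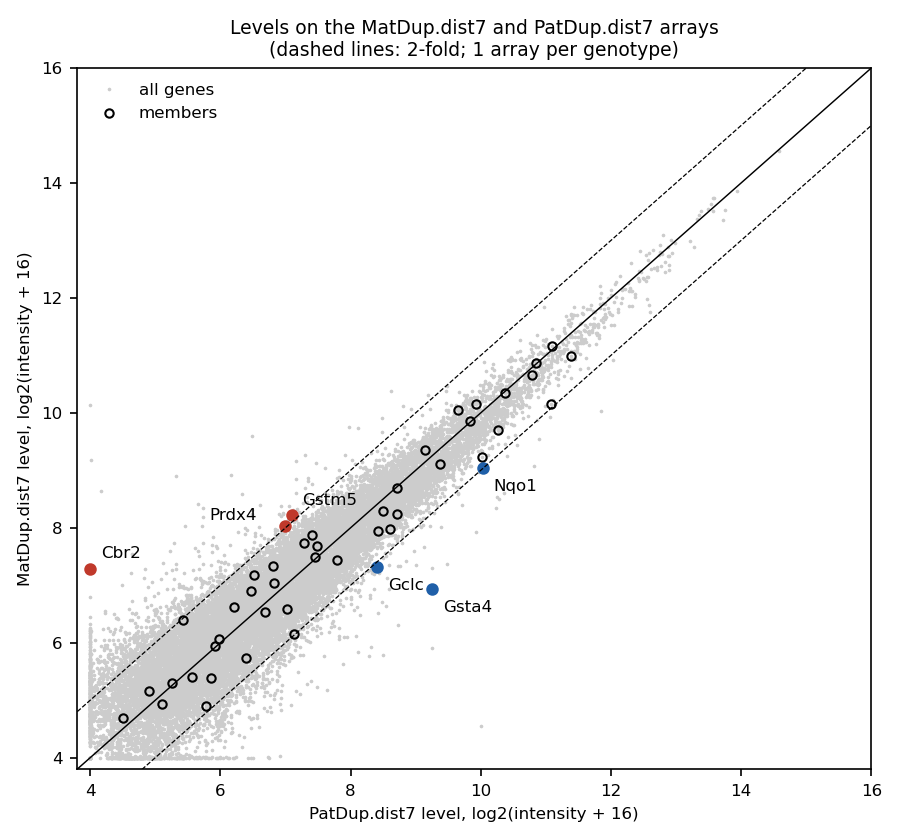
Level of every gene on the MatDup.dist7 array (y axis) against the PatDup.dist7 array (x axis), both log2(intensity + 16), with all 19938 genes in grey, the 48 members as circles and members at least 2-fold apart filled in colour (dashed lines, 2-fold). Cbr2 sits at the low edge of the PatDup.dist7 axis, whereas Gsta4, Gclc and Nqo1 have measurable signal on both arrays.

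The regulators lay on the PatDup.dist7 side. Nfe2l2, encoding NRF2, had 811 and 1210.2 (-0.57), and Keap1, encoding the adaptor that marks NRF2 for degradation, had 286 and 403 (-0.47). Neither reached 1.5-fold. Their differences were smaller than those of Gclc, Nqo1 and Hmox1 and larger than those of Prdx1, Gsr and Srxn1. NRF2 is controlled largely at the level of the protein, which was not measured.

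The counts by promoter match depended on scaling. Of the 10 members with the motif, 8 were higher in PatDup.dist7 and their median was -0.42, while of the 32 with a window and no match 12 were higher in PatDup.dist7 and the median was 0.03. The 8 were Mgst1, Gclm, Nfe2l2, Txnrd1, Gstm7, Prdx1, Sod1 and Srxn1, of which Sod1 and Srxn1 differed by -0.03 and -0.01. Under quantile normalisation Sod1 and Srxn1 changed side and the counts were 6 of 10 and 14 of 32, and with the arrays centred on their medians they were 8 of 10 and 17 of 32. The median of the members with a match was -0.41 and -0.47 in these cases. Gstm5, whose stretch is printed above, went the other way at 1.12, as did Gsta3 at 0.42. Over the measured genes with a searched window, 50.8% of 2371 with the motif and 48.6% of 13243 without it were higher in PatDup.dist7, with medians of -0.02 and 0.02. The match in Prdx1 overlaps TGANTCA, the element bound by AP-1. No test was made of these counts, and a match beyond the window would not be seen.

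**Figure D4:**
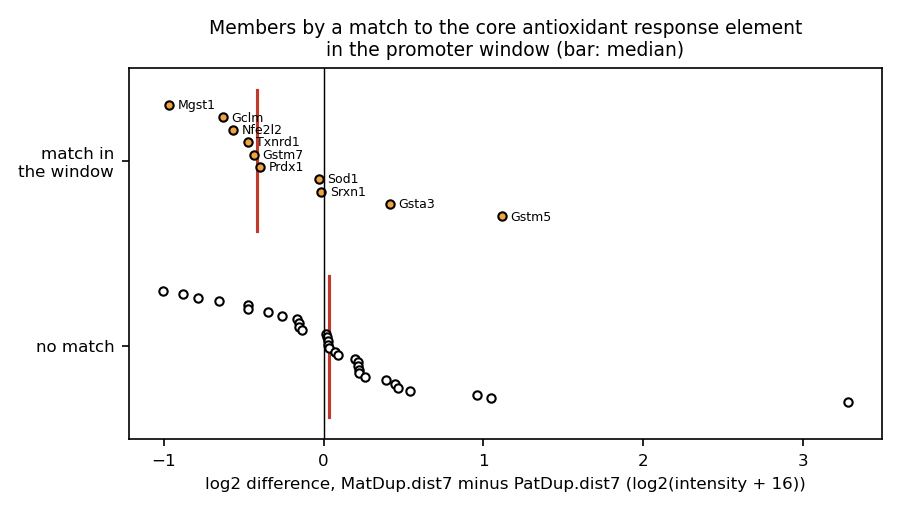
Differences of the 42 members with a promoter window (x axis, MatDup.dist7 minus PatDup.dist7, log2(intensity + 16)), with the 10 that hold the motif in the upper row, named, and the 32 without it below; the red bars are medians. The upper median is -0.42 and the lower 0.03, and the rows overlap over most of their range.

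Gclc and Gsta4, members with large PatDup.dist7 excess, lie close together on chromosome 9. The 4 measured genes between them were Elovl5 (-0.22), Fbxo9 (-0.36), Cilk1 (-0.37) and Rn7sk (0.17), all within 2-fold. Beyond Gsta4, Ooep was higher in MatDup.dist7 (119 and 45.6, difference 1.13). On the other side of Gclc, Tinag differed by -1.10, from a MatDup.dist7 value under 1, and Fam83b by 1.20, from 26.1 and 2.30. The excess was thus not shared by the whole stretch. Among the 10 neighbours each of Gstm5 and Nqo1, none was at least 2-fold apart.

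Other genes of the redox pathways, 103 measured in 8 lists, were also mixed. Of these, 44 were on the MatDup.dist7 side and 59 (57.3%) on the other, where 48.6% of all genes were, and the median was -0.10. Beyond 2-fold were 3 (2.9%) on the MatDup.dist7 side and 2 (1.9%) on the other, beside 4.47% and 3.16% of all genes. The list of iron, haem and metal handling had 8 of 10 genes higher in PatDup.dist7 and a median of -0.31. Slc40a1, the iron exporter ferroportin, had 83.1 and 355 (-1.91), and Mt1, a metal-binding metallothionein, had 374 and 1298 (-1.75). Its paralogue Mt2 had 127 and 253 (-0.91), while the ferritin subunits Fth1 and Ftl1 each differed by -0.23. Slc40a1 is also expressed in macrophages, whose marker values are given above with Hmox1.

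Examples of known NRF2 targets outside the member list could be found on both sides. Osgin1 (28.4 and 68.0, difference -0.92), Slc7a11, the cystine transporter subunit (-0.68, dim on both arrays) and Sqstm1, the autophagy receptor p62 (4041 and 5986, -0.57) were higher in PatDup.dist7. Abcc3, an exporter of conjugates (259.9 and 143, 0.80), Aldh3a1, an aldehyde dehydrogenase (32.7 and 12.7, 0.76) and Blvrb, a biliverdin reductase (399.9 and 276, 0.51) were higher in MatDup.dist7. The list of other quinone, aldehyde and carbonyl reductases and conjugating enzymes, which holds Abcc3 and Aldh3a1, had 7 of 21 genes on the MatDup.dist7 side and 14 on the other, with a median of -0.17. Of the 7 NADPH-supplying enzymes measured, 4 were higher in PatDup.dist7, with a median of -0.22. Their differences ran from -0.63 for Idh1 to 0.47 for Nnt, with Me1 at -0.31, Pgd at -0.22 and Tkt at 0.20. Gstcd was the only other transferase or related gene beyond 2-fold, with 67.5 and 25.6. The other list genes beyond 2-fold on the MatDup.dist7 side were Akr1c14 (2.20) and Duox2 (1.94), both with a PatDup.dist7 value under 1. The targets named here, and Me1, Pgd and Tkt, were picked as well-known targets after the values were seen. Their split between the arrays was set by this choice and is no tally of all known targets. Glutaredoxins, thioredoxins and methionine sulfoxide reductases had 11 of 18 genes higher in MatDup.dist7, none beyond 2-fold. The regulators and partners of NRF2 were even, with 7 and 8 of 15 on the MatDup.dist7 and PatDup.dist7 sides.

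**Figure D5:**
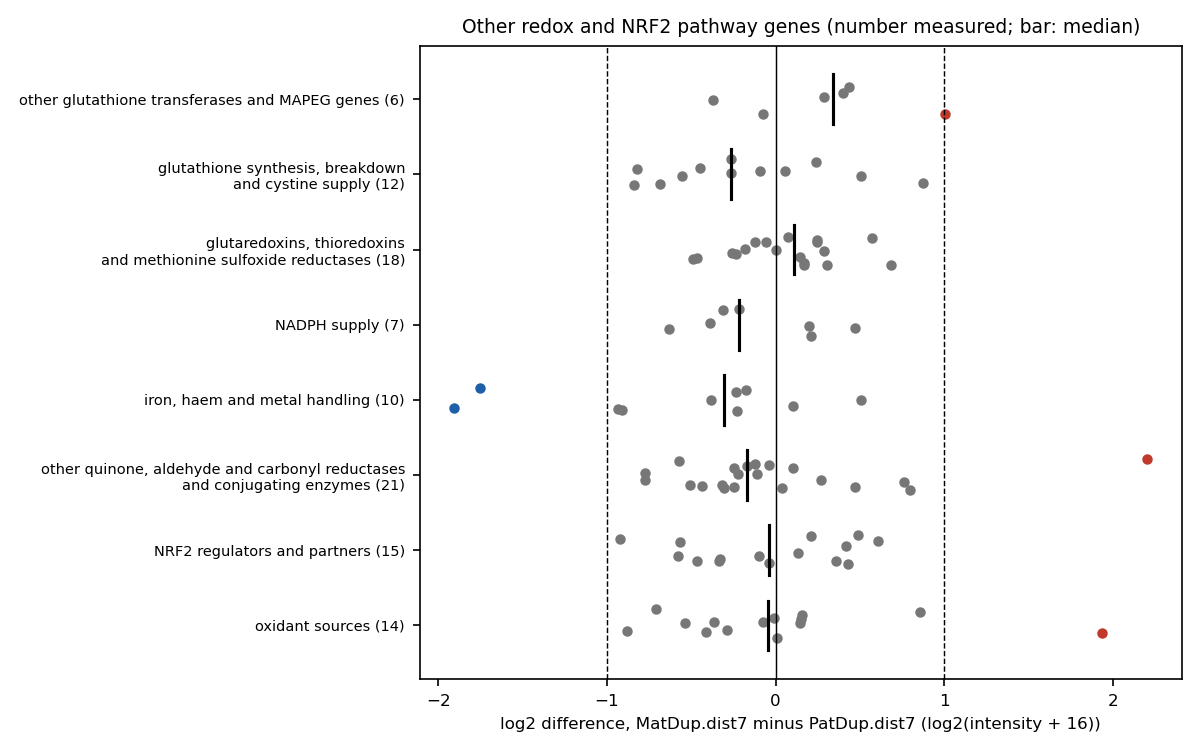
Differences of the 103 other redox genes (x axis, MatDup.dist7 minus PatDup.dist7, log2(intensity + 16)) in 8 lists, with the number measured in brackets and bars at the medians; red points pass 2-fold on the MatDup.dist7 side and blue points on the PatDup.dist7 side. Slc40a1 and Mt1 are the blue points of the iron, haem and metal list, and the other lists have medians between -0.26 and 0.34.

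As a check of the labels and cells, Cdkn1c and Igf2, imprinted genes of the distal segment, differed by 6.13 and -5.45, as the genotypes' names imply for a maternally and a paternally expressed gene; the size rests on a value near 0 on the other array. Of 16 fibroblast markers, 13 were higher in PatDup.dist7 (median -0.39), and none was under 1. Dcn, a matrix proteoglycan, had 142 and 592 (-1.95) and Postn, periostin, 520.3 and 1788 (-1.75), while Vim, vimentin, stood at 11913 and 11542 (0.05). Of 10 markers of cartilage and bone, 8 were higher in MatDup.dist7 (median 0.67). They ranged from Col2a1 of cartilage at 599 and 141 (1.97) to Col10a1 of hypertrophic cartilage at 43.7 and 595 (-3.35). Hepatocyte markers had a median of 0.18, with Cyp2e1 at 1.10 and Apoa2 at -1.05. Medians were 0.15 for erythroid, 0.30 for adipocyte and 0.05 for endothelial markers. The part of any of these cells in the members' differences was not tested. The arrays had median intensities of 68.6 and 64.2 over 35557 probe sets.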

How the data were processed

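RNA from 1 MatDup.dist7 and 1 PatDup.dist7 MEF culture was hybridised to 1 Affymetrix array each. The deposited table holds 1 linear intensity per probe set and array. Affymetrix Expression Console is named in the submitters' processing notes; its summarisation and normalisation settings were not given in the sources used here. Precision is limited by having 1 array per genotype.

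Of 35557 probe sets, 21789 had 1 gene symbol in the platform annotation, 1621 had several and 12147 none. Only those with 1 were used, and 21698 of them were matched by gene identifier to the GRCm38.p6 gene table for current symbol and chromosome. Intensities were taken as log2(intensity + 16), probe sets of a gene were averaged on that scale, and 19938 genes resulted. Printed intensities of genes with several probe sets are means of the deposited values. No filter was applied to counts; 39 of 48 members exceeded the 50th percentile of intensity on at least 1 array. Calculations used Python, pandas 2.3.3 and numpy 2.4.6 and were checked on simulated arrays. The fold rule was 2-fold, with 1.5-fold beside it.

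The members, gene lists and rules were chosen with earlier results of these data known. The rule for named genes covered every member at least 2-fold apart or with a value above the 90th percentile, with examples from the other members by role, and pathway-list genes at least 2-fold apart and above the 50th percentile. Other list genes and neighbours that the text names were chosen after their values were seen. Protein sequences were not used here. Alternatives changed the pseudocount, the treatment of low values, scaling, the filter, the choice of probe set and the fold rule.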

Additional observations from a re-analysis of the deposited data

How the results depend on the processing

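No paired analysis was possible because each genotype has 1 array, and for the same reason no replicate could be left out. Of the counts at 2-fold, 3 members in each direction, the pseudocount and the fold rule moved them most: with a pseudocount of 1, 5 members were higher in PatDup.dist7 (Gclc, Gsta4, Gstp3, Mgst1 and Nqo1), and with 64 there was 1 in each direction, Cbr2 and Gsta4. With a 3-fold rule there was likewise 1 in each direction, and with a 1.5-fold rule there were 5 and 9. On the MatDup.dist7 side 4 members passed 2-fold with a pseudocount of 1. The share of all genes passing 2-fold also moved with the pseudocount. With 1 this share was 10.9% on the MatDup.dist7 side, against 8.5% on the other, and with 64 it was 0.47% against 0.40%. The other settings run gave 2 to 4 members in each direction, and the median of the members stayed between -0.06 and 0.00046. Cbr2 was left out where probe sets under 1 were removed. Centring the arrays on their medians left Prdx4 under 2-fold. No member at least 2-fold apart changed direction under any setting; among the others, 5 changed sign under centring and 4 under quantile normalisation, all with a difference of at most 0.03, 1 when the brightest probe set of a gene was used, and 3 when intensities below the 25th percentile were raised to it, which sets low values equal. Leaving out genes of X and Y, and a filter on the mean level, were added after the data were seen and each left 2 and 3 members. The share of all genes at least 2-fold apart was 7.63% and fell to 2.96% with the filter on the mean level.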

Other observations

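Probe sets that name several members were set aside above, and 6 of them bear on genes without a value of their own. The 4 shared by Gsta1, Gsta2 and related predicted genes were all higher in MatDup.dist7, opposite to the neighbouring Gsta4. Their differences were 1.13, 0.50, 0.57 and 1.37, the last from intensities of 55.8 and 11.7. Which of the genes gives this signal cannot be told apart. The 2 shared by Gstp1 and Gstp2 had 626 and 753 (-0.26) and 464 and 469 (-0.02).

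Enzymes that produce oxidants showed no shared direction, with 6 of 14 higher in MatDup.dist7. Cybb, the catalytic subunit of the phagocyte NADPH oxidase, had 398 and 661 (-0.71), on the side of most macrophage markers; it lies on the X chromosome, and Nox4, the oxidase known from fibroblasts, had 81.5 and 71.5 (0.15). Xdh, xanthine dehydrogenase, had 32.2 and 72.7 (-0.88).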
